A study of Homo sapiens with 22 samples.

Results

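The 7 genes described here carry the name of the insulin-like growth factor (IGF) binding proteins or one close to it: IGFBP2, IGFBP3, IGFBP4, IGFBP5, IGFBP6, IGFBP7 and IGFN1. They were chosen by symbol from the gene lists of the single-cell tables, which hold 33538 genes for the untreated WM989 cells and 36601 genes for each of the other 2 experiments, and all 7 symbols were found in each table. The rule itself uses no measured value, but the genes were chosen with earlier results of these data known. Counts of them beside all genes are therefore not those of a blind choice. WM989 is a BRAF V600E mutated melanoma cell line in which most cells are drug-susceptible and rare cells are primed, a state with a higher chance of surviving targeted therapy, and the study followed these states by single-cell RNA sequencing of drug-naive cells that carried transcribed lineage barcodes.

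The study's cells fall into 4 sets. The first held untreated, barcoded WM989 cells that had been sorted as EGFR- and NGFR-high or as a mixed population and then expanded. They were read in 8 wells, of which 4 belong to replicate r1 and 4 to replicate r2 of the cell metadata, and the labels used here do not say which sort each well held. By the methods a sorted culture was split over 2 wells, so the wells are not independent cultures. The second was 1 library of WM983B, another melanoma cell line, untreated. In the third, barcoded WM989 cells grown from a single sorted well were divided over plates that were left untreated (Control) or received the TGFB1 protein, a TGF-beta receptor inhibitor (TGFBRi, LY2109761) or a PI3K inhibitor (PI3Ki, GDC-0941). Each treatment has 2 libraries. The methods describe them as replicates run in parallel, each divided from its own well, and the cell metadata number them r1 and r2. The sample labels instead call one library of each treatment Mix and the other Primed (MixControl and PrimedControl, for example). Which of r1 and r2 carries which label could not be settled, so a difference in starting cells and the spread between replicates cannot be told apart. The fourth held no RNA: WM989 cells sorted as EGFR_High, NGFR-High, EGFR-NGFR-High or Mix were profiled for open chromatin by OMNI-ATAC directly after sorting, with 3 libraries of each sort. The labels call the last sort Mix, whereas the methods describe a population negative for both markers, and which of the 2 it was could not be settled. Every group is a melanoma line in culture, so no group carries the other cell types that surround a tumor.

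The IGF binding proteins are secreted proteins that hold IGF1 and IGF2, and so set how much of either ligand reaches the receptor IGF1R. Proteases release the ligands by cutting the binding proteins, and several binding proteins also bind the cell surface or matrix and act apart from the ligands. IGFBP7 binds IGFs only weakly, binds insulin and matrix, and has been studied in melanoma as a secreted protein linked to BRAF-driven growth arrest. IGFN1, immunoglobulin-like and fibronectin type III domain containing 1, is a muscle protein that is not a member of the binding protein family by sequence, and it stands here for its name alone.

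In GENCODE v44 (genome build hg38) the genes lie at IGFBP2 chr2:216632828-216664436, IGFBP5 chr2:216672105-216695549, IGFBP3 chr7:45912245-45921874, IGFBP4 chr17:40443450-40457725, IGFBP6 chr12:53097436-53102345, IGFBP7 chr4:57030773-57110385 and IGFN1 chr1:201190824-201228952. IGFBP3, IGFBP5 and IGFBP7 are on the minus strand. IGFBP2 and IGFBP5 face each other with their 3′ ends 7668 bp apart. The sequences printed next are 300-base windows around the centres of the open regions at these genes that differed most between sorts in the comparison given at the end, with the letters of the plus strand. Capitals mark matches on either strand to 5 motifs that were searched, AP-1 (TGANTCA), TEAD (GGAATG), SOX (ACAATG), MITF (TCANGTG) and SMAD (CAGACA). The first window lies in an intron of IGFN1, the next 3 in introns of IGFBP7 and the last upstream of IGFBP3, and none overlaps an exon.
IGFN1, 1096 bp after its start site, chr1:201191770-201192069: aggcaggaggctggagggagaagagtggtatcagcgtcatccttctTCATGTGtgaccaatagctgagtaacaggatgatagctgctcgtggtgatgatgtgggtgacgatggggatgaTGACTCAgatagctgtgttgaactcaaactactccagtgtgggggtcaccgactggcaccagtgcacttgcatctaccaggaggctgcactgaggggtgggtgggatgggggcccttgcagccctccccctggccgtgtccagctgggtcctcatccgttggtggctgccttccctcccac
IGFBP7, 35386 bp after its start site, chr4:57074849-57075148: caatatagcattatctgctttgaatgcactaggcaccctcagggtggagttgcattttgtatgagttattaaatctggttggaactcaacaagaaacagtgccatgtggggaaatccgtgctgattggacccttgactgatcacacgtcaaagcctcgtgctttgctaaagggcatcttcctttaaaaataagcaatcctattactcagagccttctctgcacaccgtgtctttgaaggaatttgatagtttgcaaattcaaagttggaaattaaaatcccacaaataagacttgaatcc
IGFBP7, 66194 bp after its start site, chr4:57044041-57044340: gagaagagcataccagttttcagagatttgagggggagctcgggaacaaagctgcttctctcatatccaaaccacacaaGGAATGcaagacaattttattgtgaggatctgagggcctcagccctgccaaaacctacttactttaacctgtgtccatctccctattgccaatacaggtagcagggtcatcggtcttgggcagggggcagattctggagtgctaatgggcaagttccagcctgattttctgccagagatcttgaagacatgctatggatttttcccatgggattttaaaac
IGFBP7, 16332 bp after its start site, chr4:57093903-57094202: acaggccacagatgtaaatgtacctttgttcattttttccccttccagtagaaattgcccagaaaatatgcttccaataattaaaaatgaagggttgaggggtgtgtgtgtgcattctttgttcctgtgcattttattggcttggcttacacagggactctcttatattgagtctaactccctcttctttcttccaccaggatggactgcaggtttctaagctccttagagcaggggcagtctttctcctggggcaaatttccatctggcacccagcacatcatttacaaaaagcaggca
IGFBP3, at -3329 bp from its start site, chr7:45924451-45924750: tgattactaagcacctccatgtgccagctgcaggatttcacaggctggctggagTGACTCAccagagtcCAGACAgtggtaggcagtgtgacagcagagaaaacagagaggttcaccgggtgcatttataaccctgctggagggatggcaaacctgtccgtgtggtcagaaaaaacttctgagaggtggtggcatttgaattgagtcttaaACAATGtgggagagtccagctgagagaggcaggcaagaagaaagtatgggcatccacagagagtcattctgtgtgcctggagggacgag
The IGFN1 window held 1 AP-1 and 1 MITF match, the IGFBP3 window 1 AP-1, 1 SOX and 1 SMAD match, and of the 3 IGFBP7 windows 1 held a TEAD match and the other two none of the letters searched. Such short letters are common: over 78211 open regions of the same window length, AP-1 was found in 17.8%, TEAD in 19.3%, SOX in 17.3%, MITF in 15.2% and SMAD in 22.0%, and of the 28 tested regions at the 7 genes 4, 4, 5, 6 and 6 held them in that order. No motif here was tested for a role.

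Levels are given in CPM: the unique molecular identifiers (UMIs) of a gene were summed over the cells of a group, divided by all UMIs of that group and scaled to 1000000. The 3′ counting has no length term, so levels are compared between groups of cells and not between genes. The untreated WM989 table held 12531 cells and 750662838 UMIs, WM983B 1449 cells and 102738398 UMIs, and the treatment experiment 40021 cells and 685641196 UMIs, with 70239657 to 122420544 UMIs per library. State labels (drug-susceptible or primed) and clusters were the study's own. In both WM989 experiments fixed markers differed between the labels. The study itself chose its primed clusters by primed marker genes, so this is no independent check of the labels. In untreated WM989, summed melanocytic markers (MLANA, PMEL, TYR, DCT, SOX10 and MITF) were 4880 CPM in drug-susceptible and 202 CPM in primed cells, and summed primed markers (EGFR, AXL, NGFR and NT5E) 29.3 and 316 CPM. In the treatment experiment these sums were 4779 and 620 CPM, and 22.1 and 191 CPM. In WM983B the markers set the labels apart less clearly. Cluster 3, labelled drug-susceptible, stood at 1057 CPM for the melanocytic and 158 CPM for the primed markers. That was nearer to the primed cluster 2 (937 and 184 CPM) than to the drug-susceptible cluster 1 (2206 and 67.0 CPM). SOX10 alone was 208 CPM under the drug-susceptible and 192 CPM under the primed label. Over clusters of the 3 experiments, summed leukocyte markers (PTPRC, CD3E and CD79A) were at most 0.465 CPM and keratinocyte markers (KRT5 and KRT14) at most 1.46 CPM, while fibroblast markers (DCN, LUM and PDGFRB) ranged from 11.0 to 112 CPM. Single fibroblast markers went both ways with the primed label, in untreated WM989 PDGFRB from 0.910 to 13.5, DCN from 1.33 to 6.19 and LUM from 32.2 to 16.9 CPM, and in the treatment experiment PDGFRB from 0.923 to 46.0 CPM. Endothelial markers (PECAM1, VWF and CDH5) were higher under the primed label in WM989, 25.3 against 0.498 CPM, of which PECAM1 alone gave 22.8 CPM. Their part in the levels below was not tested. Cell barcodes shared between libraries were few, 19 of 12512 in untreated WM989 and 194 of 39827 in the treatment experiment.

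In untreated WM989 cells, 6 of the 7 genes were higher in primed than in drug-susceptible cells, by factors from 2.07 to 161, and the remaining gene, IGFBP4, was read as 1 UMI in all 12531 cells. The clusters behind these labels were called on the same counts, so the ratios are descriptions without a test. Of the 5 genes that reached 20 CPM in either state, all 5 had a primed to drug-susceptible ratio over 2, as had 10.4% of the 6316 genes that reached this level. These are pooled over all wells, and primed cells came mostly from wells 1, 2, 5 and 6 and drug-susceptible cells from the other four, so the pooled ratios mix differences between states with differences between wells, and the range of the ratio within single wells is given beside them. Within wells, 5 of 5 genes had a ratio over 2 in wells 1, 5 and 6, 4 in wells 2, 7 and 8, and 3 in wells 3 and 4. The 10.4% applies to pooled ratios only. The share of all genes within wells is not given here, so the within-well counts have no background. Intervals are exact 95% Poisson intervals and cover counting error only.

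IGFBP7 stood at 1534 CPM in primed cells against 22.4 CPM, which is 68.4 times the drug-susceptible level (14.3 to 99.6 times within single wells, median 29.6). The ratio was below the pooled one in 6 of the 8 wells. In primed cells the 8 wells stood at 2091, 1907, 796, 618, 1513, 1449, 485 and 641 CPM in well order, and in drug-susceptible cells of the same wells at 88.0, 84.5, 8.55, 6.20, 94.2, 101, 13.7 and 14.3 CPM. The states did not overlap in any well, and wells 1, 2, 5 and 6 were high in both. Those wells also held the most primed cells, 56.9%, 62.4%, 79.7% and 76.9% of cells against 6.85% to 9.42% in the other four, so that well, sort and the level of IGFBP7 within a state cannot be told apart. As a share of the primed level of the same well, the drug-susceptible level of IGFBP7 was 4.21% to 7.0% in wells 1, 2, 5 and 6 and 1.0% to 2.83% in the other four. The part of free RNA in it was not tested. Among single cells, 99.5% of primed and 28.5% of drug-susceptible cells held a UMI of IGFBP7, or 96.7% and 10.5% after thinning each cell to 10000 UMIs, with median depths of 58253 and 52835 UMIs.

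IGFN1 had the largest pooled ratio, 161 (42.9 to 723 within wells), from 1.03 CPM in drug-susceptible to 167 CPM in primed cells. Its primed level was higher in r2, where the 4 wells stood at 292, 258, 274 and 231 CPM, than in r1 with 70.3, 61.0, 108 and 82.6 CPM, and the replicates did not overlap. In drug-susceptible cells IGFN1 was 0.149 to 0.479 CPM in r1 and 1.53 to 6.70 CPM in r2. The direction was the opposite for IGFBP2, a binding protein for both ligands that is often raised in tumors. Its primed wells were at 594, 532, 302 and 217 CPM in r1 and 116, 130, 178 and 236 CPM in r2, and here the replicates overlapped. Pooled, IGFBP2 stood at 122 CPM in drug-susceptible and 322 CPM in primed cells, a ratio of 2.63 that was 3.28 in r1 and 1.84 in r2. Within wells the IGFBP2 ratio ran from 1.49 to 4.82 and was over 2 in 6 of 8. All 4 wells of r2 were over 2 (3.18, 3.62, 2.20 and 2.99), above the pooled r2 ratio, which mixes wells that differ in level and in share of primed cells. An IGFBP2 UMI was counted in 88.2% of the cells labelled drug-susceptible and 87.4% of those labelled primed, or 56.0% and 61.5% after thinning to the same depth.

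IGFBP6, which prefers IGF2 as its ligand, stood at 10.9 CPM in drug-susceptible and 77.9 CPM in primed cells, a ratio of 7.14 that was 6.52 in r1 and 8.68 in r2, and from 2.38 to 9.34 within wells. Its drug-susceptible wells were close together, 8.23 to 12.4 CPM, while its primed wells ranged from 29.4 CPM in well 3 to 91.6 CPM in well 6. IGFBP5, a binding protein that attaches to matrix, stood at 26.1 and 54.0 CPM, a ratio of 2.07, and its wells overlapped between the states when taken over both replicates, with 11.8 to 43.1 CPM in drug-susceptible and 27.4 to 79.4 CPM in primed cells. Within each of the 8 wells the primed level was the higher one, but the IGFBP5 ratio there ran from 1.13 to 3.5 with a median of 1.89 and was over 2 in 3 of 8 wells. IGFBP3, the main carrier of IGFs in serum, was low in both states, 0.453 and 8.73 CPM, with a pooled ratio of 19.3 (interval 16.9 to 22.1) that was larger than the ratio within 7 of the 8 wells (5.91 to 25.2, median 13.9). An IGFBP3 UMI was held by 17.5% of primed against 2.06% of drug-susceptible cells (4.89% and 0.442% after thinning).

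The study's 11 clusters of untreated WM989 include 3 primed clusters, numbered 2, 8 and 9, and the genes ranked them differently. IGFBP7 ran 1916 CPM in cluster 2, 1220 in cluster 9 and 642 in cluster 8, then 74.9 in cluster 4 and 29.8 in cluster 6, and each of these steps was larger than the r1 to r2 range. IGFN1 was led by cluster 9 with 271 CPM, ahead of cluster 2 with 135 and cluster 8 with 119 CPM. These 3 overlapped between replicates, and the only step beyond that range was the one down to the drug-susceptible clusters, all at 0.618 to 2.49 CPM. For IGFBP2 the order was 426 CPM in cluster 2, 215 in the drug-susceptible cluster 10 and 196 in cluster 8, and all 10 neighbouring pairs overlapped. Drug-susceptible cluster 4 was high for IGFBP5, 62.3 CPM, close to the 70.4 CPM of cluster 2 and above the 11.9 to 29.3 CPM of the other drug-susceptible clusters. IGFBP5 pairs of neighbours likewise overlapped in all 10 cases. IGFBP6 stood at 95.6, 58.6 and 43.9 CPM in clusters 2, 9 and 8, and IGFBP3 at 11.9, 3.09 and 6.03 CPM.

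**Figure D1:**
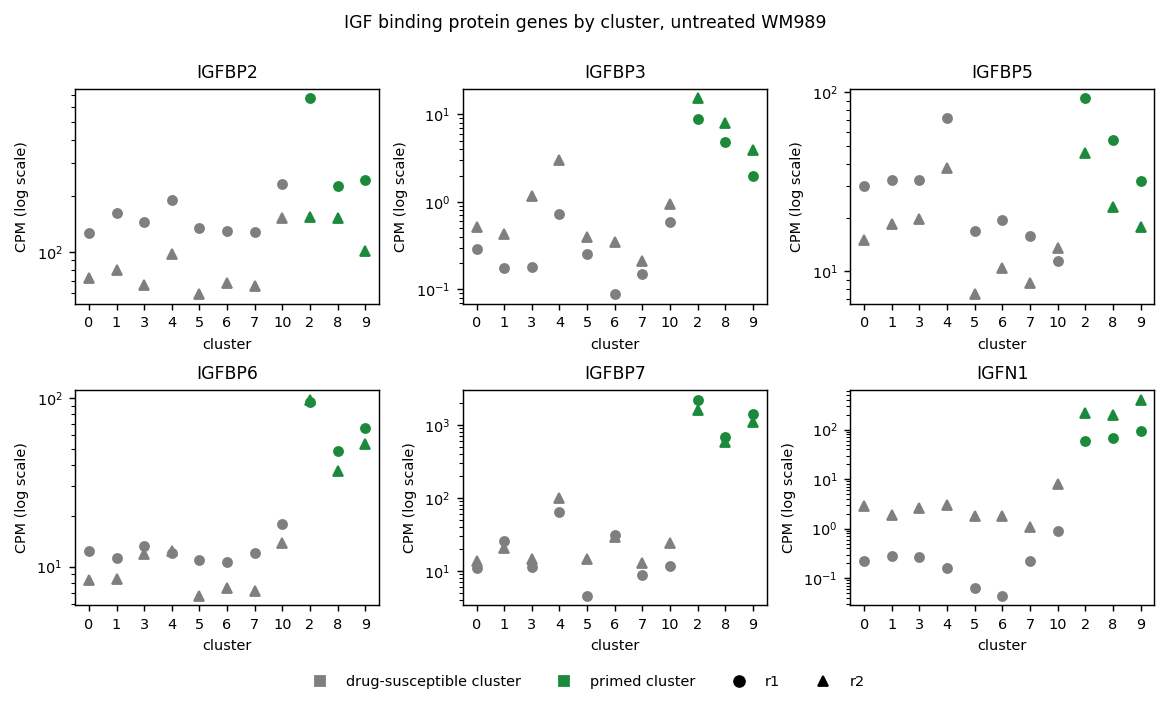
Levels of 6 genes (CPM, log axis) in the 11 clusters of untreated WM989 cells, with replicate r1 as circles and r2 as triangles, primed clusters in green and drug-susceptible clusters in grey. IGFBP7 and IGFN1 separated primed from drug-susceptible clusters by the widest margin, whereas the points of IGFBP2, IGFBP3 and IGFBP5 overlapped between the states.

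Across the 24 clusters of both WM989 experiments, log2 levels of IGFBP7 and IGFN1 had a Pearson r of 0.923, IGFBP6 and IGFN1 0.943, and IGFBP6 and IGFBP7 0.892. IGFBP5 followed IGFBP7 less closely (0.660), and IGFBP2 was between -0.173 and 0.200 with the others. The genes most like each in pattern, of 7364 that reached 20 CPM, were TFPI, SNTB1 and SPP1 for IGFBP7 (r 0.975 each), MYH15, STX1A and TMEM158 for IGFN1 (0.989, 0.987 and 0.985), ITGA3 and CST3 for IGFBP6 (0.970 and 0.969, after the unnamed transcript AC093673.1 with 0.977), OLFML2A, SERPINE2 and MFGE8 for IGFBP5 (0.900, 0.879 and 0.871), and VSTM2B, DMXL2 and LY6E for IGFBP2 (0.692, 0.679 and 0.651). These correlations describe clusters that share libraries and were defined on the same genes, and carry no test.

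WM983B differed in which of these genes it used. IGFBP7 was high in both states, 304 CPM in drug-susceptible and 325 CPM in primed cells (ratio 1.07), and between 304 and 355 CPM in each of its 4 clusters. It was counted at least once in 99.9% of the cells labelled drug-susceptible and in 100% of those labelled primed. IGFN1 was 4 UMIs in all 1449 cells, and IGFBP2 was low at 9.03 and 12.5 CPM. IGFBP4, which was almost unread in WM989, was present at 7.38 and 13.3 CPM, with a UMI in 38.3% and 49.4% of the cells of these states (18.9% and 29.6% after thinning to 30000 UMIs). The widest primed to drug-susceptible ratio was that of IGFBP5, 4.01, from 5.31 to 21.3 CPM, although IGFBP5 was counted in only 15.0% and 19.7% of cells (8.99% and 15.1% after thinning). IGFBP3 stood at 17.6 and 45.3 CPM (ratio 2.57), and it was highest in cluster 2, with 192 CPM against 16.1 to 26.9 CPM in the other clusters. Cluster 2 gave 1239 of its UMIs, and clusters 0, 1 and 3 gave 972, 748 and 201. The primed label of this line covers clusters 0 and 2, with 640 and 91 cells, and in cluster 0 alone IGFBP3 stood at 22.9 CPM beside the 17.6 CPM of drug-susceptible cells. IGFBP6 went from 22.5 to 44.8 CPM, a ratio just below 2. The drug-susceptible label here pools cluster 1 with cluster 3, whose markers lay near those of a primed cluster, and IGFBP6 stood at 19.7 and 39.5 CPM in these. Against cluster 1 alone, a choice made after the data were seen, the primed ratio was 2.28 for IGFBP6, 2.81 for IGFBP3, 4.86 for IGFBP5 and 1.07 for IGFBP7. A ratio over 2 was found for 1.30% of the 6856 genes that reached 20 CPM in this line. With 1 library there was no replicate check.

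The genes of the IGF pathway around the binding proteins were fixed as lists and counted whole. Of the 12 ligands, receptors and adaptors, 5 reached 20 CPM in untreated WM989. Beside the 10.4% of all genes at this level with a pooled ratio over 2, 6.55% had one under 0.5. Of the 5, IRS1, an adaptor that passes the receptor signal on, had a ratio over 2 (3.92 to 53.9 CPM, 13.7) and its relative IRS2 one under 0.5 (74.4 to 22.4 CPM, 0.301). IGF1R itself was 18.7 CPM in drug-susceptible and 25.6 CPM in primed cells. The ligands were nearly absent from these cells, with 28 UMIs of IGF1 and 0 of IGF2 in 12531 cells. Of the 7 genes that cleave IGFBPs, restrain that cleavage or complete the ternary complex, 2 reached 20 CPM and both were higher in primed cells, the inhibitor of IGFBP cleavage STC1 from 2.68 to 341 CPM and the serine protease HTRA1 from 15.4 to 68.6 CPM. Of the 9 IGFBP-related genes, 3 reached that level and all had ratios over 2, with CCN4 at 0.124 and 39.9 CPM, CCN3 at a ratio of 4.75 and CCN2 at 2.54.

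In the treatment experiment, primed cells made up 2.26% and 4.47% of the Control libraries (r1 and r2), 29.1% and 31.3% of TGFB1, 2.26% and 4.32% of TGFBRi, and 0.647% and 1.21% of PI3Ki. Sums over all cells therefore move with this share, and for such sums fewer cells of a state and less RNA per cell cannot be told apart. For that reason each comparison was made over all cells and then within each state. The treatments were each compared with the same 2 Control libraries, so their results are not independent. Adjusted p-values are from edgeR's quasi-likelihood test with Benjamini-Hochberg adjustment over all genes tested, with the replicate as a block. A difference between r1 and r2 that all treatments share is thereby removed. The p-values measure the spread left between libraries after that. With 3 residual degrees of freedom per gene, they also draw on the spread of other genes. IGFBP4 had no UMI in any of the 8 libraries and was not tested, which left 6 genes.

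TGFB1, tested over all cells, raised 4 of the 6 genes and lowered 1, against 29.0% of all genes called in either direction. The median log2 change of the 6 was 1.74, and that of all genes 0.01. IGFBP5 stood at 21.4 and 16.9 CPM in Control and at 174 and 114 CPM after TGFB1, 19.1 ± 3.13 against 144 ± 42.4 (SD, n = 2), a log2 change of 2.88 ± 0.08 (SE, adjusted p = 3.20e-17). IGFBP7 went from 8.37 and 23.3 CPM to 103 and 141 CPM (3.05 ± 0.14, adjusted p = 1.13e-13). IGFN1 went from 1.46 and 2.21 CPM to 9.68 and 9.38 CPM (2.41 ± 0.24, adjusted p = 4.46e-08). For IGFBP5, IGFBP7 and IGFN1 no TGFB1 library overlapped a Control library, and the same held for IGFBP6 and IGFBP2 below. The share of all genes separated in this way is not given here, and n = 2 per group makes such a separation weak. IGFBP6 rose by less, from 9.45 and 11.7 CPM to 22.9 and 21.7 CPM (1.07 ± 0.10, adjusted p = 8.61e-09). IGFBP2 was the gene that fell, from 183 and 160 CPM to 120 and 115 CPM (-0.56 ± 0.07, adjusted p = 1.20e-06). IGFBP3, at 0.205 to 0.436 CPM in these 4 libraries, did not pass (0.55 ± 0.31, adjusted p = 0.202).

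The inhibitors moved fewer of the genes over all cells. TGFBRi passed for 2 of 6, against 2.53% of all genes. IGFBP2 rose to 285 and 243 CPM (0.64 ± 0.07, adjusted p = 5.86e-06). IGFBP7 fell by 0.64 on the log2 scale (SE 0.15, adjusted p = 0.0175), but its libraries overlapped, 6.91 and 12.4 CPM against 8.37 and 23.3 CPM, and the call was lost without the replicate block (adjusted p = 0.760), without Control r2 (0.939) and without TGFBRi r2 (0.142). PI3Ki passed for 4 of 6, against 12.7% of all genes. It lowered IGFBP7 to 2.12 and 4.71 CPM (-2.04 ± 0.16, adjusted p = 1.46e-08), IGFN1 to 0.185 and 0.523 CPM (-2.17 ± 0.38, adjusted p = 0.000450) and IGFBP5 to 11.8 and 8.91 CPM (-0.79 ± 0.08, adjusted p = 1.10e-06). The calls of IGFBP5 and IGFN1 were lost without the block (adjusted p = 0.0685 and 0.0622). Within the states IGFN1 did not pass with PI3Ki, at 0.51 ± 0.75 in drug-susceptible (adjusted p = 0.727) and -0.73 ± 0.27 in primed cells (0.238). IGFBP2 rose here too, to 221 and 210 CPM (0.43 ± 0.07, adjusted p = 0.000156), so that it was the gene that went down with TGFB1 and up with both inhibitors. The median log2 change of the 6 genes was 0.36 with TGFBRi and -0.67 with PI3Ki, and that of all genes 0.00 with both.

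**Figure D2:**
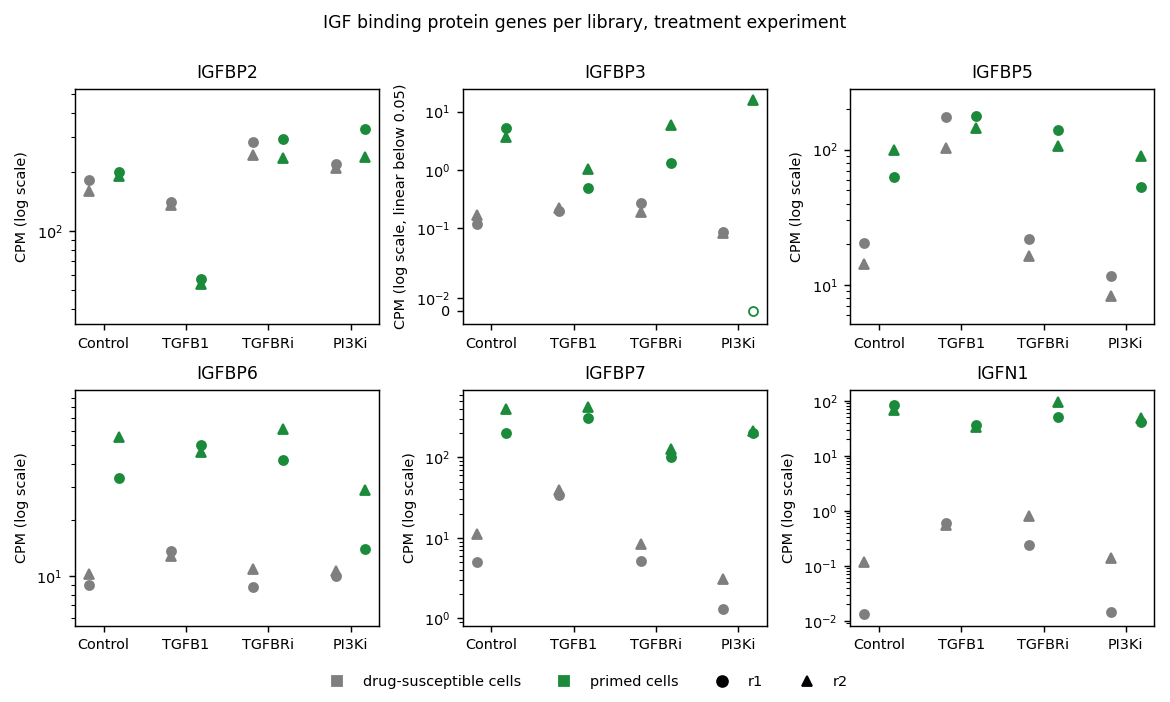
CPM of each gene in the drug-susceptible and primed cells of each of the 8 libraries of the treatment experiment, with log axes except below 0.05 CPM, where the IGFBP3 axis is linear and its library at 0 is an open symbol. IGFBP5 of drug-susceptible cells was 103 and 174 CPM after TGFB1 and at most 21.9 CPM in the other 6 libraries.

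Within drug-susceptible cells, TGFB1 passed for 5 of the 6 genes, against 14.9% of all genes. These cells include cluster 3, which held 1.47% of Control and 34.4% of TGFB1 cells. When cluster 3 was left out of the drug-susceptible cells, 3 single-gene results moved and 1 stayed the same, and 1 summary of counts or levels stayed the same. The folds below are therefore not those of every drug-susceptible cluster. Over all treatments cluster 3 held 8016 and 4807 UMIs of IGFBP5 (r1 and r2). All drug-susceptible cells of the TGFB1 libraries held 10386 and 6458. For IGFBP7 these counts were 1636 and 1763 in cluster 3, beside 2019 and 2435. The part of cluster 3 in the folds below was not tested further. IGFBP5 had 20.6 and 14.3 CPM in Control, 174 and 103 CPM with TGFB1, 21.9 and 16.5 CPM with TGFBRi and 11.7 and 8.27 CPM with PI3Ki. Its TGFB1 change was as large as over all cells (2.96 ± 0.08, adjusted p = 1.71e-17), and the TGFB1 libraries lay far above all others. As a share of the IGFBP5 level in primed cells of the same library, drug-susceptible cells held 98.3% and 71.1% after TGFB1 (r1 and r2), against 32.6% and 14.4% in Control. IGFBP7 rose from 4.98 and 11.3 CPM to 33.8 and 39.0 CPM (2.23 ± 0.14, adjusted p = 5.66e-11). IGFN1 rose from 0.0130 and 0.116 CPM, which were 1 and 9 UMIs, to 0.602 and 0.544 CPM (3.13 ± 0.54, adjusted p = 0.000189), and this fold rests on levels below 1 CPM. The share of primed cells moved with both: the drug-susceptible level as a percent of the primed level of the same library was 11.0% and 9.16% for IGFBP7 and 1.64% and 1.6% for IGFN1 after TGFB1. In Control it was 2.46% and 2.84% for IGFBP7 and 0.0155% and 0.171% for IGFN1. The part of free RNA or of misassigned cells in these 2 changes was not tested. IGFBP6 rose slightly from 9.03 and 10.3 CPM to 13.7 and 12.9 CPM (0.45 ± 0.09, adjusted p = 0.00108). IGFBP2 fell from 182 and 159 CPM to 141 and 136 CPM (-0.31 ± 0.07, adjusted p = 0.00301), a call that was lost without the block (adjusted p = 0.0879). Without TGFB1 r1, 3 of the 6 genes passed, since IGFBP2 (0.0911) and IGFBP6 (0.149) did not.

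The TGFBRi test in drug-susceptible cells passed for 2 of 6 genes, against 2.81% of all genes. IGFBP2 rose to 284 and 244 CPM (0.64 ± 0.07, adjusted p = 3.25e-06). IGFN1 rose to 0.235 and 0.794 CPM (2.97 ± 0.53, adjusted p = 0.00146), from 19 and 67 UMIs against 1 and 9, and this call was lost without the block (adjusted p = 0.209) and without TGFBRi r2 (0.124). PI3Ki passed for 3 of 6, against 12.1% of all genes. IGFBP7 fell to 1.30 and 3.05 CPM (-1.74 ± 0.18, adjusted p = 3.78e-07) and IGFBP2 rose to 221 and 209 CPM (0.43 ± 0.07, adjusted p = 0.000169). IGFBP5 fell by 0.71 (SE 0.09, adjusted p = 5.66e-06), a call that was lost without the block (adjusted p = 0.169). Drug-susceptible cluster 6 held 2.14% of Control and 23.2% of PI3Ki cells, and IGFBP7 stood there at 0.653 and 1.14 CPM (r1 and r2 over all treatments). The part of this shift between clusters in the PI3Ki changes was not tested. Over the 6 genes the median log2 change in drug-susceptible cells was 1.39 with TGFB1, 0.40 with TGFBRi and -0.22 with PI3Ki.

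Within primed cells, the libraries rested on 94 and 165 cells in Control, 1577 and 1757 in TGFB1, 118 and 271 in TGFBRi and 25 and 70 in PI3Ki. Primed cells of different treatments also came from different clusters: cluster 10 held 95.8% of them in Control, 100% in TGFBRi and 94.7% in PI3Ki, while cluster 4 held 97.6% in TGFB1. TGFB1 passed for 5 of 6 genes here, against 13.3% of all genes, 2 of them up and 3 down. That count was 3 without Control r1 or TGFB1 r1 and 2 without TGFB1 r2. IGFBP2 had 200 and 192 CPM in Control, 57.1 and 53.8 CPM with TGFB1, 295 and 237 CPM with TGFBRi and 333 and 240 CPM with PI3Ki. Its fall with TGFB1 was the largest among the well-counted genes (-1.75 ± 0.13, adjusted p = 3.94e-14), and the TGFB1 libraries were the lowest of the 8. IGFN1 was 84.2 and 67.6 CPM in Control and 36.7 and 34.1 CPM with TGFB1 (-0.98 ± 0.18, adjusted p = 4.74e-05), a fall, although more cells carried the primed label. This IGFN1 call was lost without TGFB1 r2 (adjusted p = 0.0534). IGFBP5 rose from 63.3 and 99.4 CPM to 177 and 145 CPM (1.01 ± 0.16, adjusted p = 7.14e-06).

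For IGFBP7 in primed cells the libraries stood at 203 and 399 CPM in Control, 308 and 425 CPM with TGFB1, 99.99 and 126 CPM with TGFBRi and 203 and 215 CPM with PI3Ki. The TGFB1 rise was small beside this spread (0.39 ± 0.13, adjusted p = 0.0384) and was lost without the block (adjusted p = 0.305) and with DESeq2 (0.240). TGFBRi lowered it (-1.40 ± 0.15, adjusted p = 3.23e-08), the only one of the 6 genes called with this inhibitor, against 0.375% of all genes, and both TGFBRi libraries were below every other library. With PI3Ki it was again the 1 gene called of 6, against 1.78% of all genes (-0.62 ± 0.17, adjusted p = 0.0387), and this call was lost without the block (adjusted p = 0.374) and with DESeq2 (0.193), as well as without Control r2 (0.808) or PI3Ki r2 (0.613). IGFBP3 was called lower with TGFB1 (-2.25 ± 0.64, adjusted p = 0.0118), from 5.22 and 3.62 CPM to 0.497 and 1.03 CPM. In 3 of the 4 fits that left out 1 library IGFBP3 did not pass, with an adjusted p of up to 0.411. IGFBP6 held 33.5 and 55.1 CPM in Control and 50.4 and 46.2 CPM with TGFB1, and did not pass (0.18 ± 0.17, adjusted p = 0.596). The medians over the 6 genes in primed cells were -0.40, 0.14 and -0.36 for TGFB1, TGFBRi and PI3Ki.

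**Figure D3:**
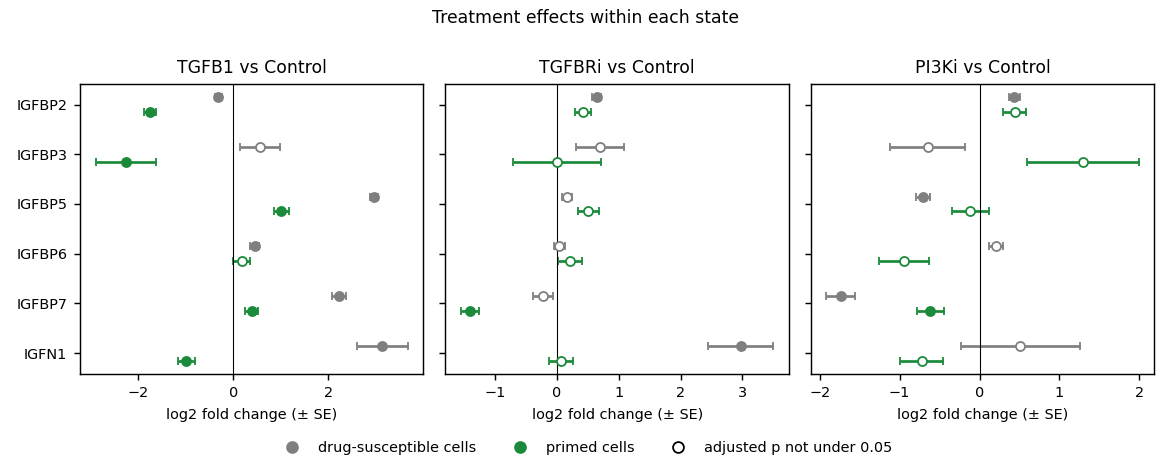
Log2 changes against Control (points) with their standard errors (bars) for each gene within drug-susceptible and within primed cells, for TGFB1, TGFBRi and PI3Ki. Filled points have an adjusted p under 0.05. IGFBP5 after TGFB1 was at 2.96 in drug-susceptible and 1.01 in primed cells, and IGFN1 was at 3.13 and -0.98.

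Whether the change from Control differed between cells labelled primed and drug-susceptible was tested as the state by treatment interaction, with each library as a block. The labels were given after treatment, and primed cells lay mostly in cluster 10 in Control and in cluster 4 after TGFB1. Unequal action on a state and a different make-up of the labelled cells therefore cannot be told apart. With 4 residual degrees of freedom per gene, the very small p-values also draw on the spread of other genes. For TGFB1, 5 of the 6 genes passed, against 9.98% of all genes, all with a lower change in primed than in drug-susceptible cells: IGFBP2 by -1.36 ± 0.10 (adjusted p = 1.02e-36), IGFBP3 by -2.84 ± 0.80 (0.00639), IGFBP5 by -1.93 ± 0.13 (1.57e-50), IGFBP7 by -1.71 ± 0.10 (2.42e-62) and IGFN1 by -4.00 ± 0.43 (4.06e-18). The IGFBP3 difference was lost with DESeq2 (adjusted p = 0.127) and in 3 of 4 fits that left out a library (up to 0.241). IGFN1 went in opposite directions in the states, up where it was nearly absent and down where it was high. For TGFBRi, IGFBP7 (-1.15 ± 0.13, adjusted p = 7.16e-16) and IGFN1 (-2.93 ± 0.44, 7.60e-08) passed, 2 of 6 against 0.551% of all genes, and the IGFN1 difference was lost with DESeq2 (adjusted p = 0.571). For PI3Ki, 2 of 6 genes passed against 1.21% of all genes. IGFBP7 fell less in primed than in drug-susceptible cells (1.03 ± 0.16, adjusted p = 8.13e-08). For IGFBP6 the difference was -1.13 ± 0.28 (adjusted p = 0.00781), with log2 changes of 0.20 in drug-susceptible and -0.94 in primed cells that did not pass on their own (0.153 and 0.138). When libraries needed at least 50 primed cells, the IGFBP6 difference was lost (adjusted p = 0.132) and IGFBP5 passed (0.96, adjusted p = 0.00347). Without TMM too, IGFBP6 was lost (0.0574) and IGFBP5 passed (0.0181).

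The clusters of this experiment show where the TGFB1 changes lay, as a description. Cluster 3, labelled drug-susceptible, held 1.47% of Control and 34.4% of TGFB1 cells, and cluster 4, labelled primed, 0.140% and 29.5%. IGFBP5 was highest in these 2 clusters, 232 and 160 CPM, followed by 104 CPM in the primed cluster 10 and 5.58 to 32.5 CPM elsewhere. In cluster 3 it was 114 CPM over the 115 Control cells and 240 CPM over the 3801 TGFB1 cells. IGFBP2 was lowest in the same 2 clusters, 52.2 CPM in cluster 4 and 114 CPM in cluster 3, against 163 to 257 CPM in all others. In cluster 10, which held few TGFB1 cells, IGFBP2 was 200 CPM in Control and 205 CPM over the 80 TGFB1 cells. IGFBP7 ran from 374 CPM in cluster 4 to 207 in cluster 10, 61.5 in cluster 3 and 40.5 in cluster 12, with 0.910 to 12.8 CPM in the rest. Within cluster 10 IGFBP7 was 329 CPM in Control, 163 with TGFB1, 117 with TGFBRi and 215 with PI3Ki. IGFN1 was confined in these libraries to clusters 10 and 4 (67.5 and 36.3 CPM, at most 1.48 CPM elsewhere). Over the whole experiment primed to drug-susceptible ratios were 0.436 for IGFBP2, 3.85 for IGFBP5, 4.53 for IGFBP6, 29.6 for IGFBP7 and 146 for IGFN1, where 7.61% of genes that reached 20 CPM had a ratio over 2 and 5.05% one under 0.5. TGFB1 gave 3334 of the 4077 primed cells, so these ratios mix treatments. The IGFBP2 ratio was 1.14 in Control and 0.399 in TGFB1. Mean IGFBP5 of drug-susceptible and primed cells was 17.5 and 81.4 CPM in Control, and 139 and 161 CPM in TGFB1. For IGFN1 it was 0.0644 and 75.9 CPM in Control, and 0.573 and 35.4 CPM in TGFB1. For IGFBP7 it was 8.15 and 301 CPM, and 36.4 and 366 CPM.

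The pathway lists were read in the same fits. With TGFB1 over all cells, where 29.0% of all genes were called in either direction, 1 of 7 tested ligands, receptors and adaptors rose, IRS1 (1.30 ± 0.11 on the log2 scale), and 2 fell, the adaptor GRB10 (-0.41 ± 0.07) and the IGF2 scavenger receptor IGF2R (-0.27 ± 0.07). Of 5 tested genes of cleavage and the ternary complex, HTRA1 (2.63 ± 0.07) and STC1 (1.52 ± 0.12) rose and none fell. Of 4 tested IGFBP-related genes, CCN2 (1.64 ± 0.10), a known TGF-beta target, and CCN3 (1.01 ± 0.09) rose and none fell. With TGFBRi none of these 16 genes passed over all cells, against 2.53% of all genes. With PI3Ki, against 12.7% of all genes, 3 of 7 in the first list fell (IRS1 by 0.93, GRB14 by 0.41 and GRB10 by 0.26), STC1 (-3.07 ± 0.16) and HTRA1 (-0.42 ± 0.07) fell in the second, and in the third CCN3 fell by 1.07 while CCN2 rose by 0.46. Within primed cells 13.3% of all genes were called with TGFB1, 0.375% with TGFBRi and 1.78% with PI3Ki. HTRA1 rose there with TGFB1 (2.78 ± 0.16) and fell with TGFBRi (-1.56 ± 0.23) and PI3Ki (-1.26 ± 0.31). STC1 (-1.2 ± 0.16) and CCN3 (-2.17 ± 0.17) fell with TGFB1. These are single genes and not counts of the lists. IGFBP1 was not tested in any fit, because its counts did not pass the filter.

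Open chromatin was read from the deposited peak lists of the sorted cells, as the fold enrichment of the peak in each library. Of 46 regions within the 7 genes or 5000 bp on either side, 28 had a peak in all 12 libraries and were tested with limma on log2 fold enrichment: 10 of 21 at IGFBP7, 7 of 8 at IGFBP5, 3 of 5 at IGFBP2, 3 of 3 at IGFBP3, 2 of 4 at IGFBP4, 2 of 3 at IGFN1 and 1 of 2 at IGFBP6. EGFR_High cells were more open than Mix at 6 of the 28, against 5.83% of all 78211 regions called in either direction. Fits that left out a library gave 3 to 5 of 28, the lowest without EGFR_High replicate 1. For NGFR-High it was 6 of 28 against 12.2%, and for EGFR-NGFR-High 9 of 28 against 12.7%. No region at the 7 genes was called lower in these main tests, and the 3 comparisons share the Mix libraries. A region without a peak in some libraries could not be called. The IGFBP6 region at 6366 bp had a peak in 3 Mix, 0 EGFR_High, 0 NGFR-High and 1 EGFR-NGFR-High libraries. The other way, the IGFBP7 region at 8030 bp had one in 0, 2, 3 and 3 of these. With a replicate block, 1 IGFBP5 region was called lower in NGFR-High, as given in the last section. The median log2 difference of the 28 regions was 0.29, 0.12 and 0.03 in that order, and of all regions 0.03, 0.03 and -0.01. Regions at IGFBP2, IGFBP5 and IGFBP6 were not called in the main tests.

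IGFBP7 accounted for 4, 4 and 6 of these calls. Of these, the calls at the intron region 39626 bp after its start site were lost in 4 of 6 fits that left out a library for NGFR-High (adjusted p up to 0.119) and in 2 of 6 for EGFR-NGFR-High (up to 0.0574). The EGFR_High call at 28749 bp was lost without EGFR_High replicate 1 (0.0607). At the intron region 66194 bp after its start site, printed above, the 3 Mix libraries had fold enrichments of 10.3, 8.48 and 7.74, EGFR_High 30.7, 18.9 and 17.1, NGFR-High 21.5, 18.8 and 17.4, and EGFR-NGFR-High 30.1, 22.2 and 27.3. Every sorted library was above every Mix library (log2 differences 1.48, 1.1 and 1.53, SE 0.22, adjusted p = 0.00159, 0.00501 and 0.000541). At the intron region at 35386 bp, NGFR-High (34.2, 28.0 and 18.3) and EGFR-NGFR-High (30.6, 21.7 and 22.3) were above Mix (5.38, 8.01 and 9.68) with adjusted p = 0.000479 and 0.000553, while EGFR_High (12.4, 11.3 and 11.3) was not called (0.83, adjusted p = 0.0533). At 16332 bp, EGFR_High (47.8, 47.8 and 39.6) was above Mix (26.0, 25.9 and 16.9) with a log2 difference of 1.19 ± 0.18 and adjusted p = 0.00186, and NGFR-High (33.4, 28.4 and 29.1) was not called (0.41, adjusted p = 0.159). When NGFR-High and EGFR_High were tested against each other, a contrast added after the data were seen, none of the 28 regions passed, against 0.690% of all regions (adjusted p = 0.0824 at 35386 bp and 0.0616 at 16332 bp), so no difference between these 2 sorts was shown. At the start site itself EGFR_High and EGFR-NGFR-High were called (0.88 and 1.07, adjusted p = 0.0341 and 0.00650), the first of which was lost in 5 of 6 fits that left out a library.

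The intron region of IGFN1 1096 bp after its start site, whose window holds an AP-1 and an MITF match, had fold enrichments of 4.48, 4.24 and 5.32 in Mix and 6.83, 7.09 and 5.87 in EGFR_High. It had 16.7, 14.4 and 9.87 in NGFR-High and 26.2, 18.0 and 16.4 in EGFR-NGFR-High. The log2 differences from Mix were 0.69, 1.5 and 2.03 (SE 0.19, adjusted p = 0.0491, 0.000389 and 4.10e-05), the last the largest at any region of the 7 genes. The EGFR_High call was lost in all 6 fits that left out a library. IGFBP4, although almost without UMIs in WM989, was more open in all sorts at a region 14975 bp after its start site, past its end, with 9.41, 13.7 and 12.6 in Mix and 20.6 to 28.8 in the 9 sorted libraries (1.03, 1.04 and 1.11, SE 0.17). At the region upstream of IGFBP3, EGFR-NGFR-High had 11.9, 12.8 and 15.4 against 4.48, 5.66 and 6.78 in Mix and was called (1.2 ± 0.29, adjusted p = 0.0140). The call was lost without EGFR-NGFR-High replicate 3 (adjusted p = 0.0532) and without Mix replicate 1 (0.060). NGFR-High, with 10.3, 7.87 and 13.2, was not called there (0.86, adjusted p = 0.0685).

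**Figure D4:**
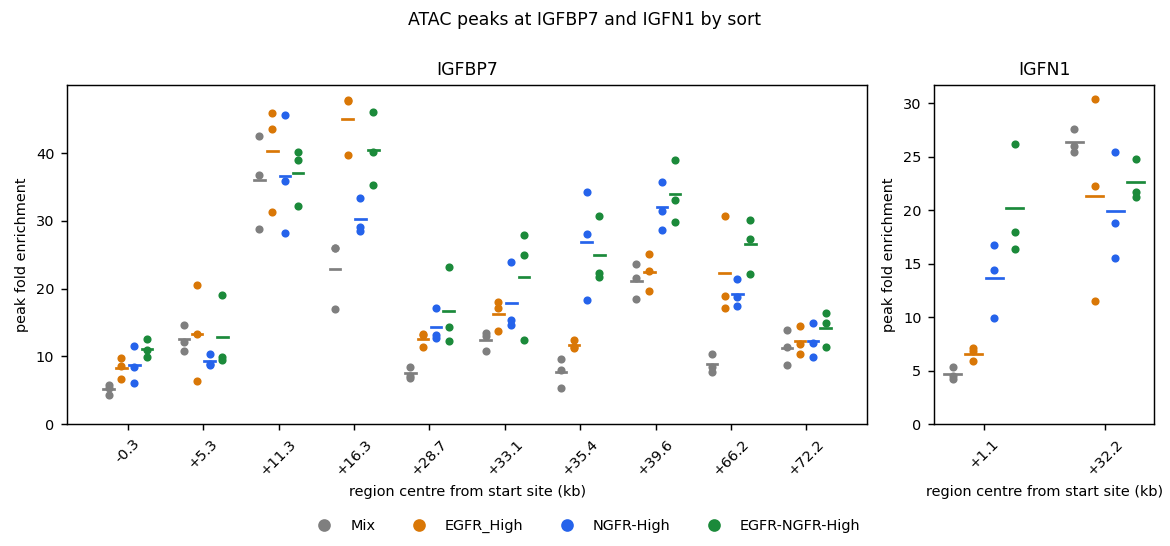
Fold enrichment of the ATAC peak in each library (points) and its mean (bars) at the 10 tested regions of IGFBP7 and the 2 of IGFN1, by sort, with each region placed by its distance in kb from the start site. At IGFN1 the region 1096 bp from the start site rose from 4.24 to 5.32 in Mix to 16.4 to 26.2 in EGFR-NGFR-High.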

How the data were processed

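For 3 single-cell experiments the values are UMI counts of each gene in each cell as the authors deposited them, made with the 10x Genomics 3′ kits and Cell Ranger on hg38 (version not given in the sources used here), and cell metadata, in which the authors had recorded clusters, states, conditions, cell cycle phases and the percent of mitochondrial reads, the last not used further. They filtered cells, including likely doublets, by the number of genes and the share of mitochondrial reads before deposit, and no cell was removed here. For ATAC-seq the authors deposited MACS2 peak lists per library, of which the fold enrichment column, a ratio over the local background, was used, and not the −log10 q-values that the authors' caller wrote beside it. The submitters' processing notes name Bowtie2 2.3.4.1, SAMtools 1.1 and MACS2 2.1.1.20160309.

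UMI counts were summed per library, state and cluster and divided by the summed total to give CPM. Summed counts of the 8 treatment libraries were tested in R 4.3.3 with edgeR 4.0.16 (filterByExpr, TMM, quasi-likelihood F test, treatment plus replicate), and the state by treatment interaction with each library as a block, using libraries with at least 20 primed cells. ATAC peaks of the 12 libraries were merged, and of 151848 regions found in at least 3 libraries the 78211 with a peak in all 12 were tested on median-centred log2 fold enrichment with limma 3.58.1. All tests were two-sided with an adjusted p threshold of 0.05. DESeq2 1.42.0 was an alternative. Tests were checked on simulated data with 200 changed genes. Figures and sums used Python 3.11.15. Columns of per-sample values that could not be tied to a sample numbered 0.

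Same-numbered treatment libraries deviated together (Pearson r 0.256 to 0.365 over the 6 treatment pairs, 18389 genes), and the methods describe replicates run in parallel from split wells, so the replicate block stands in the model. Same-numbered ATAC libraries had a median r of 0.0885, the lowest being -9.67e-05. Libraries of different number had a median of -0.0387, the highest being 0.0403, so same-numbered ones deviated together weakly. Their numbers are not stated to mark a shared day, and no block was used in the main ATAC model. All 7 genes are named. The lists of IGF pathway genes were counted whole, with values for at most 4 genes per list that passed in a comparison where a member also passed, the largest fold first. Genes and lists were chosen with earlier results of these data known. The sample labels name the 2 libraries of a treatment Mix and Primed, which could not be tied to r1 and r2. The replicate block removes any r1 to r2 difference shared by the treatments, so the p-values measure only the spread left after it, whatever its source. Single-gene precision is limited by depth, and 3 counts were taken as the floor. Motif windows were 300 bases of hg38.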

Additional observations from a re-analysis of the deposited data

Results flagged for a closer look

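Each of the following values was marked because a gene's change from Control differed between cells labelled primed and drug-susceptible in the interaction test (edgeR, adjusted p in the report). With TGFB1 the log2 change in primed minus that in drug-susceptible cells was -1.36 for IGFBP2, -2.84 for IGFBP3, -1.93 for IGFBP5, -1.71 for IGFBP7 and -4.00 for IGFN1. The primed cells compared lay mostly in cluster 10 in Control and in cluster 4 after TGFB1, and the IGFN1 value rests on 1 and 9 UMIs in drug-susceptible Control cells. With TGFBRi it was -1.15 for IGFBP7 and -2.93 for IGFN1, and with PI3Ki -1.13 for IGFBP6 and 1.03 for IGFBP7, both PI3Ki values resting on 25 and 70 primed cells in the PI3Ki libraries.

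A further value was marked by a rule meant for a single well apart from the others: IGFBP4 had 0.00933 CPM in the drug-susceptible cells of well 7 of untreated WM989, which is 1 UMI, against 0 in the other wells. With 0 in all other wells, any 1 UMI would be marked by this rule, so the mark does not set well 7 apart.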

How the results depend on the processing

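No result changed direction under any alternative tried. Counts of the 6 genes called moved by over 1.5 times as follows. Without the replicate block, TGFBRi over all cells gave 1, PI3Ki over all cells 2, TGFBRi in drug-susceptible cells 1 and PI3Ki in primed cells 0. With DESeq2, the counts were 1 for TGFBRi over all cells, 1 for TGFBRi in drug-susceptible cells, 0 for PI3Ki in primed cells and 1 each for the TGFBRi and PI3Ki interactions. Library totals without TMM gave 0 for PI3Ki in primed cells. When each library was limited to its 50000 strongest peaks, 3 regions at these genes could be tested and 0 were called in each of the 3 ATAC comparisons. Within single wells of untreated WM989, an alternative chosen after seeing the data, 3 of the 5 genes at 20 CPM had a ratio over 2 in wells 3 and 4, and 4 or 5 in the others. These within-well counts have no share of all genes beside them. The cause of the other changes was not tested. The replicate block in the ATAC model moved no count by over 1.5 times and added 2 calls in NGFR-High, at the IGFBP7 start site (adjusted p = 0.0147) and lower at an IGFBP5 region (-0.81, adjusted p = 0.0461).

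Leaving out 1 library at a time gave these ranges of calls: TGFB1 over all cells 5 to 5, in drug-susceptible cells 3 to 5, in primed cells 2 to 5 and for the interaction 4 to 5. The ranges for TGFBRi were 1 to 4, 1 to 3, 1 to 2 and 2 to 3, and for PI3Ki 4 to 4, 3 to 3, 0 to 1 and 1 to 2. For ATAC they were 3 to 5 in EGFR_High, 5 to 7 in NGFR-High and 8 to 9 in EGFR-NGFR-High. Where an arm kept 1 library, it was taken to vary like the other groups. By gene, the TGFBRi fall of IGFBP7 over all cells was lost without Control r2 (adjusted p = 0.939) or TGFBRi r2 (0.142), and without TGFBRi r1 IGFBP5 (0.0396) and IGFN1 (0.00101) were added. In drug-susceptible cells with TGFB1, IGFBP2 was lost without Control r1 (0.123) or TGFB1 r1 (0.0911) and IGFBP6 without TGFB1 r1 (0.149), and with TGFBRi, IGFN1 was lost without TGFBRi r2 (0.124). In primed cells with TGFB1, IGFBP3 and IGFBP7 were lost without Control r1 (0.411 and 0.773), TGFB1 r1 (0.101 and 0.507) or TGFB1 r2 (0.276 and 0.184), and IGFN1 without TGFB1 r2 (0.0534). The PI3Ki fall of IGFBP7 in primed cells was lost without Control r2 (0.808) or PI3Ki r2 (0.613). The IGFBP3 interaction with TGFB1 was lost in 3 of 4 such fits (up to 0.241) and with DESeq2 (0.127), the IGFBP6 interaction with PI3Ki in 3 of 4 (up to 0.595) while IGFBP5 was added there without Control r2 (5.27e-05) or PI3Ki r1 (0.00347), and the IGFN1 interaction with TGFBRi with DESeq2 (0.571).

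IGFBP3, IGFN1 in drug-susceptible cells and the primed cells of PI3Ki are limited by counts. The WM983B ratios used few cells, and with cells in G1 alone the ratio of IGFBP6 was 2.27 and that of IGFBP5 was 5.52. In untreated WM989, G1 cells gave 1.93 for IGFBP5, just under a ratio of 2.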
